A study of Homo sapiens with 12 samples.

Results

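The 9 laminin chain genes LAMA1, LAMA3, LAMA4, LAMA5, LAMB1, LAMB2, LAMB3, LAMC1 and LAMC3 were taken by symbol from the 26485 genes of the count table. That table holds 12 chain genes, and the shares, sums and ranks of chains given below are among the listed 9 only. The family was chosen by the counts of LAMC3, which were strongly lower in all 3 labelled lines than in Empty, so every chain value set against the Empty line is given as a description. Of the 9 chains, 8 passed the low-count filter and entered the test. LAMA4, with 3 counts over the 12 libraries, did not. LAMA1 met the filter in 5 libraries, the 3 wells of Empty, the line with its highest mean, and 2 Z5 wells, while the other 7 tested chains met it in all 12.

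The cells were HepG2, a long-established hepatoma line of human origin, and their RNA was sequenced. The groups are the stable lines Z2, Z5 and Z9, which received CRISPR vectors labelled sgZHX3-2, sgZHX3-5 and sgZHX3-9 and carry a genotype label of ZHX3 depletion, and Empty, which received the empty vector and is labelled WT. All 4 lines were lipofected and put under blasticidin from 48 h later. There are 3 wells of each line, named a to c, and n counts wells. Wells of 1 line are not independently made lines, and there is 1 control line, so p-values measure the spread between wells, and the vector and the history of a line cannot be told apart. Library totals ran from 50864744 to 65428204 counts.

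Laminins are secreted glycoproteins in which an alpha, a beta and a gamma chain are joined along a coiled coil. Their short arms polymerise into the sheet on which a basement membrane is built, and the globular end of the alpha chain binds integrins, dystroglycan and other receptors. In normal liver, bile ducts and vessels have a basement membrane, while the hepatocyte plates along the sinusoids lack a continuous sheet.

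ZHX3 mRNA, from the labelled target, stood at 32.5 to 34.9 CPM (counts scaled to a common library size) in the labelled wells and at 32.7 to 33.5 CPM in the Empty wells. It averaged 34.5 ± 0.620 CPM in Z2, 32.9 ± 0.505 CPM in Z5, 34.3 ± 0.713 CPM in Z9 and 33.0 ± 0.421 CPM in Empty (SD, n = 3 wells each). Counts per gene do not show a small edit or the amount of protein, so the lines are called by their labels. Hepatocyte markers were abundant in every well, with a summed level of 48938 to 54676 CPM over 9 genes in the labelled lines and 54899 to 55963 CPM in Empty. Of the markers of other liver cells, the fibroblast gene DCN and the endothelial gene KDR had 0 counts in all 12 libraries. The 7 fibroblast markers together reached 42.5 to 56.5 CPM in the labelled lines and 45.9 to 48.2 CPM in Empty. Nearly all of that was PDGFRB (21.1 to 32.5 CPM over the 12 libraries) and ACTA2 (20.5 to 24.2 CPM). The 6 endothelial markers together reached 7.0 to 9.20 CPM in the labelled lines and 6.54 to 7.09 CPM in Empty, with PECAM1 the highest (4.53 to 6.64 CPM). Of the 6 leukocyte markers, PTPRC had 3 counts and CD3E 1 count over all libraries, and the list's sum, 1592 to 2163 CPM in the labelled lines and 1820 to 1999 CPM in Empty, was nearly all LYZ. CD68, also on the leukocyte list, stood at 42.5 to 72.3 CPM over the 12 libraries. The part of these marker levels in the chain values was not tested.

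The gamma chains carried the change for which the family was chosen. LAMC1 encodes the gamma chain of most laminins. LAMC3 encodes a gamma chain with a narrower distribution, and loss of LAMC3 in people causes malformation of the occipital cortex. The 2 genes lie on different chromosomes, LAMC3 at chr9:131009174-131094473 and LAMC1 at chr1:183023420-183145592, both on the plus strand (GRCh38). These positions are from RefSeq, and the strands from GENCODE release 29. The transcripts used have 28 exons each, with 4725 coding bases in LAMC3 and 4827 in LAMC1. The last 60 coding bases are shown because the end of the gamma chain takes part in integrin binding. The antepenultimate residue of the LAMC1 protein, a glutamate, is needed for it, and its codon and the codon at the same place in LAMC3 are in capitals (5′ to 3′, GENCODE release 29, GRCh38).
LAMC3, chr9:131091725-131091784, plus strand: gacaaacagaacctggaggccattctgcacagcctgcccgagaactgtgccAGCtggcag
LAMC1, chr1:183142728-183142787, plus strand: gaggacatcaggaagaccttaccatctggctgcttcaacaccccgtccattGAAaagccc
The codon is AGC, for serine, in LAMC3 and GAA, for glutamate, in LAMC1. Set side by side without gaps, 13 of 60 bases (21.7%) are identical.

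LAMC3 had 2.22, 1.98 and 2.65 CPM in the Z2 wells, 1.74, 1.63 and 2.00 CPM in the Z5 wells and 1.99, 1.45 and 1.84 CPM in the Z9 wells, against 13.4, 14.8 and 16.9 CPM in the Empty wells. All 9 labelled wells lay below all 3 Empty wells. In bulk RNA, fewer cells with LAMC3 mRNA and less of it per cell cannot be told apart. Read counts per well were 84 to 141 in the labelled lines, and 683, 856 and 1105 in Empty a, b and c. The log2 fold change, from edgeR's fit, was -2.72 ± 0.14 in Z2, -3.07 ± 0.14 in Z5 and -3.10 ± 0.14 in Z9 minus Empty (SE). For the mean of the 3 lines it was -2.96 ± 0.097, a level 7.80-fold lower, and it stayed between -3.04 and -2.87 with any 1 of the 12 libraries left out. These 3 differences share the Empty wells and are the values that chose the family.

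The labelled lines themselves can be compared without Empty. The choice did not use these contrasts, but it used the low LAMC3 values of each labelled line. The p-values for LAMC3 are therefore a description. LAMC3 differed by -0.35 ± 0.16 on the log2 scale for Z5 minus Z2 (SE, edgeR adjusted p = 0.480) and by -0.38 ± 0.16 for Z9 minus Z2 (edgeR adjusted p = 0.153). For Z9 minus Z5 the difference was -0.03 ± 0.16 (edgeR adjusted p = 0.961). No pair passed the test, though the unadjusted edgeR p was under 0.05 for Z5 minus Z2 and for Z9 minus Z2. The fold intervals of 2 SE on each side ran from 0.632 to 0.975 for Z5 over Z2, from 0.620 to 0.957 for Z9 over Z2 and from 0.786 to 1.23 for Z9 over Z5.

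LAMC1 levels overlapped between Empty and both Z2 and Z5. It averaged 279 ± 29.8 CPM in Z2, 270 ± 13.1 CPM in Z5, 254 ± 6.29 CPM in Z9 and 277 ± 9.32 CPM in Empty (SD, n = 3 wells each). The log2 fold change was 0.01 ± 0.065 in Z2, -0.03 ± 0.065 in Z5 and -0.13 ± 0.065 in Z9 minus Empty, with all 3 Z9 wells below the Empty wells. Scaled per kilobase (kb) of exon, LAMC3 made up 0.911 ± 0.200% of the LAMC1 and LAMC3 mRNA in Z2, 0.726 ± 0.0429% in Z5, 0.762 ± 0.110% in Z9 and 5.68 ± 0.745% in Empty. Between these genes, LAMC1 was thus nearly all the mRNA in every line, and LAMC3 a small share even where it was highest. The sum of LAMC1 and LAMC3 was 33.5 ± 3.51, 32.4 ± 1.58 and 30.4 ± 0.772 CPM per kb in Z2, Z5 and Z9, and 34.9 ± 1.02 CPM per kb in Empty.

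**Figure D1:**
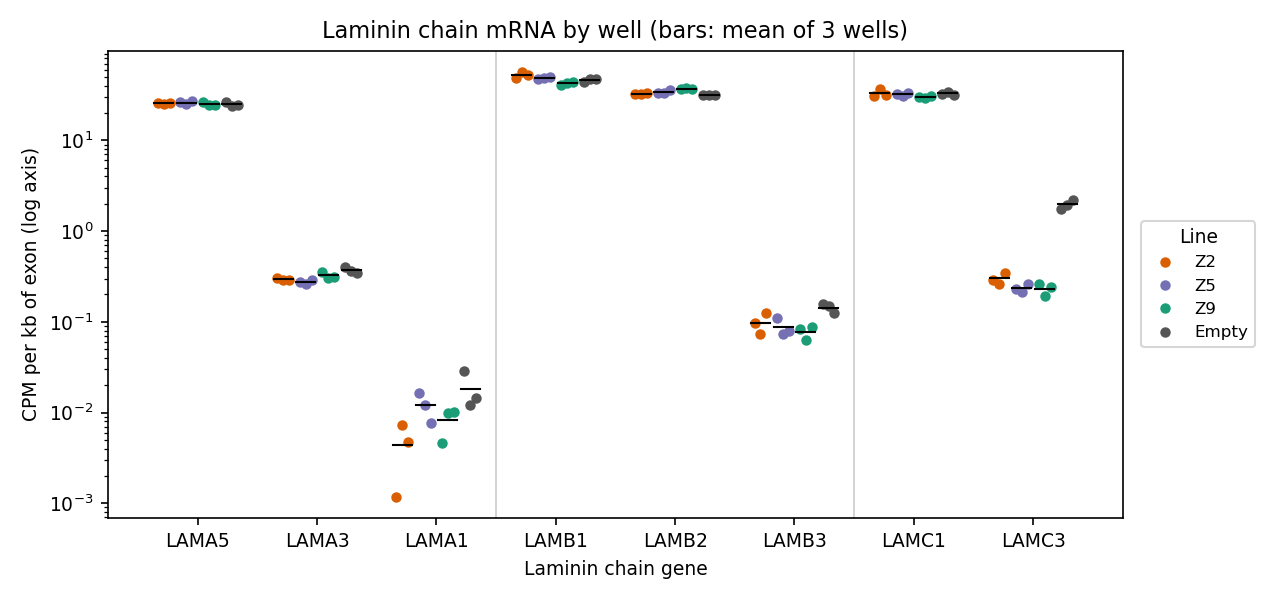
Level of each tested laminin chain in CPM per kb of exon (log axis), 1 point per well, for Z2, Z5, Z9 and Empty from left to right, with a bar at the mean of 3 wells. LAMB1, LAMC1, LAMB2 and LAMA5 sit highest in all lines, and the labelled wells of LAMC3 (1.45 to 2.65 CPM) all lie below its Empty wells (13.4 to 16.9 CPM).

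Per kb of exon, the levels of the other listed chains fell into an abundant and a scarce group. LAMB1 had 52.5 ± 4.22, 48.2 ± 1.28 and 42.7 ± 1.28 CPM per kb in Z2, Z5 and Z9, and 46.3 ± 2.14 CPM per kb in Empty. In Empty, LAMC1 followed with 32.9 ± 1.11, LAMB2 with 31.7 ± 0.235 and LAMA5 with 24.9 ± 1.24 CPM per kb. The LAMC1 and LAMB2 means were closer than 2 SD of LAMC1, and the other neighbours in this order lay farther apart than 2 SD of either. Below these came LAMC3 with 1.98 ± 0.233, LAMA3 with 0.370 ± 0.0264, LAMB3 with 0.144 ± 0.0178 and LAMA1 with 0.0183 ± 0.00886 CPM per kb. LAMC3 was the fifth of the listed chains in Empty. In the labelled lines its level, 0.232 to 0.301 CPM per kb, was close to that of LAMA3, 0.275 to 0.325 CPM per kb.

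Among the listed alpha chains, LAMA5 was 98.5% to 98.9% of the mRNA per kb in every line. LAMA5 encodes the alpha chain of the laminins that are widespread in adult basement membranes, and lies on chromosome 20. It averaged 369 ± 5.29 CPM in Z2, 372 ± 12.5 CPM in Z5, 363 ± 16.1 CPM in Z9 and 357 ± 17.8 CPM in Empty (SD, n = 3 wells each), and its wells overlapped between every pair of lines. Its exons overlap those of ADRM1, LAMA5-AS1 and MIR4758. The strand setting of the counting is not given in the sources used here, so reads of these genes could not be told apart with certainty. LAMB1 shares exon positions with DLD and AC005046.1, and LAMA1 with AP002409.1 and AP005062.1, under the same limit, while LAMC3, LAMC1, LAMB2 and LAMA3 share none.

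LAMA3, on chromosome 18, encodes the alpha chain of the laminin that anchors epithelial hemidesmosomes. It averaged 4.31 ± 0.102 CPM in Z2, 4.03 ± 0.167 CPM in Z5, 4.77 ± 0.419 CPM in Z9 and 5.42 ± 0.388 CPM in Empty. Wells of Z2 and Z5 lay below all Empty wells, and wells of Z9 overlapped them. The log2 fold change was -0.33 ± 0.10, -0.43 ± 0.10 and -0.18 ± 0.10 in Z2, Z5 and Z9 minus Empty (SE).

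LAMA1, the alpha chain of early embryonic basement membranes, and LAMA4, found around vessels and in muscle, were at the limit of detection. LAMA1 summed to 11, 32 and 22 counts in Z2, Z5 and Z9, and to 49 counts in Empty. The ratio to Empty was 0.247 in Z2 (exact 95% counting interval 0.116 to 0.481), 0.679 in Z5 (0.421 to 1.08) and 0.466 in Z9 (0.269 to 0.786), and these intervals cover counting error only. LAMA4 had 1, 1 and 0 counts in Z2, Z5 and Z9, and 1 in Empty, too few for any ratio. Both were thus nearly silent in all lines.

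The beta chain LAMB3, the partner of LAMA3 in hemidesmosomal laminin, was also scarce, with 73, 69 and 61 counts in Z2, Z5 and Z9, and 116 in Empty. Its level was 0.460 ± 0.119 CPM in Z2, 0.410 ± 0.0929 CPM in Z5, 0.366 ± 0.0637 CPM in Z9 and 0.674 ± 0.0835 CPM in Empty (SD, n = 3 wells each). Wells of Z5 and Z9 lay below the Empty wells, and those of Z2 overlapped them. For the 3 labelled lines together the ratio of counts to Empty, corrected for depth, was 0.617 (exact 95% counting interval 0.489 to 0.782).

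**Figure D2:**
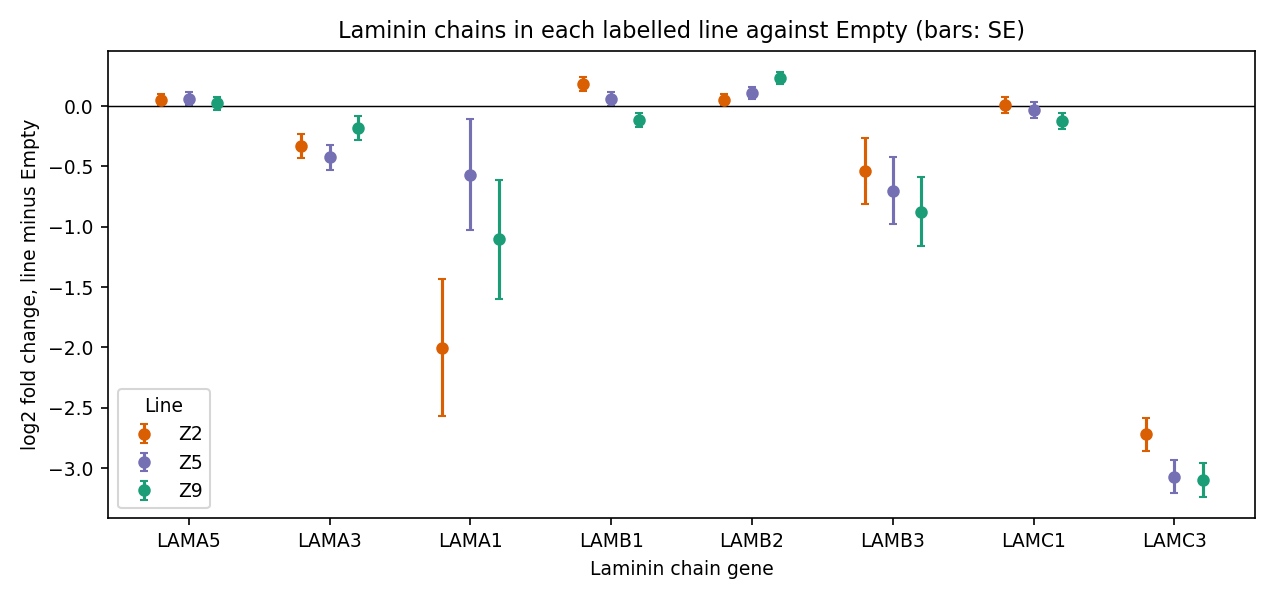
Log2 fold change of each tested chain in Z2, Z5 and Z9 minus Empty from the edgeR fit, with SE bars. LAMC3 lies at -2.72, -3.07 and -3.10, while the abundant chains LAMA5, LAMB1, LAMB2 and LAMC1 lie between -0.13 and 0.23, and the bars of LAMA1 and LAMB3 are wide at their low counts.

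The count of chains past an edgeR adjusted p of 0.05 is given beside that over all genes, and nothing is read from it, since the choice used these contrasts. In Z2 minus Empty, 4 of 8 tested chains were called (LAMA1, LAMA3 and LAMC3 lower, LAMB1 higher), where 23.9% of all 15289 genes were. In Z5 minus Empty 2 were called (LAMA3 and LAMC3, lower), where 15.0% of all genes were. In Z9 minus Empty 3 were called (LAMB3 and LAMC3 lower, LAMB2 higher), where 19.2% of all genes were. For the mean of the 3 lines 5 were called, against 25.6% of all genes: LAMA1, LAMA3, LAMB3 and LAMC3 were lower, where 12.6% of all genes were, and LAMB2 was higher, where 13.0% were. LAMA1, counted for Z2 and for this mean, would not have met the low-count filter without its Empty wells. Its calls are therefore a description only. The median log2 fold change of the 8 chains was -0.18, against 0.0029 over all genes. Leaving out Empty a left 1 chain called for the mean of the 3 lines, LAMC3, and leaving out Empty b left 3. With the wells of a line summed, so that lines are the units, LAMC3 was the 1 chain called for that mean. Without Empty a, 1 chain each was called in Z2 and in Z5 minus Empty. The call count was 2 in Z2 minus Empty without Z2 b or Z2 c, and 1 in Z5 minus Empty without Z5 b. The share of all genes called in these other fits is not given, so the lower counts are not read as a trait of the chains.

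The beta chains LAMB1 and LAMB2, alternatives for the same place in the trimer, differed between Z9 and Z2. LAMB1 is the widespread beta chain, and LAMB2 the beta chain of the kidney glomerulus and the neuromuscular junction. LAMB1 was lower and LAMB2 higher in Z9, and both differences passed the test in the fit of all 4 lines, but not in a fit of Z9 and Z2 alone. Z5 lay between the other two labelled lines in the mean of each gene. Their start-site windows are shown because these are the chains that changed between labelled lines. Each spans 250 bases before to 50 bases after the annotated start (RefSeq, GRCh38.p14, minus strand, 5′ to 3′), with CG dinucleotides in capitals.
LAMB1, chr7:108003112-108003411: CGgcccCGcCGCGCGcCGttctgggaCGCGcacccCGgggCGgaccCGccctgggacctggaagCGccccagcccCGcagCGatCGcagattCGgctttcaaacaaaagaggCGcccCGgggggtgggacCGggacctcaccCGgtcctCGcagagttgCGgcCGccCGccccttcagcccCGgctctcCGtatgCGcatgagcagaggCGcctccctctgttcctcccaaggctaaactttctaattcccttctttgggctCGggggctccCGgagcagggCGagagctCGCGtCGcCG
LAMB2, chr3:49133001-49133300: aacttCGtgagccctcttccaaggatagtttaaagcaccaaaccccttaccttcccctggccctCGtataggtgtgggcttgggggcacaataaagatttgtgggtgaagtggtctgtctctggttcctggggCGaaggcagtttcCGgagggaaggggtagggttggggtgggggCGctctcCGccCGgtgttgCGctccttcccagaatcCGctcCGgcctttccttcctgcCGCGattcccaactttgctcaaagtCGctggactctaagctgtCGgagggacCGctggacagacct
The LAMB1 window holds 35 CG dinucleotides and is 71.0% G or C, and the LAMB2 window holds 15 and is 58.7% G or C, against a median of 14 CG over 35116 windows of the same length. The motif CCAAT, bound by the factor NF-Y, with which ZHX proteins are known to interact, was searched on both strands. It is in neither of these windows, in 1 of 9 windows of the chain genes (a LAMB3 window), and in 34.6% of all windows. That says only that these letters are not in the stretches searched. Of the 9 chains, 7 had a window in the RefSeq table, and LAMA1 and LAMC3 had none.

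LAMB1 had 335, 353 and 354 CPM in the Z9 wells, 383, 391 and 403 CPM in the Z5 wells, 393, 462 and 428 CPM in the Z2 wells, and 357, 391 and 382 CPM in the Empty wells. The Z9 wells lay below all wells of the other lines. Z9 minus Z2 was -0.30 ± 0.060 on the log2 scale (SE, edgeR adjusted p = 0.0151), with a fold interval of 0.748 to 0.882. Z9 minus Z5 was -0.18 ± 0.060 (edgeR adjusted p = 0.168) and Z5 minus Z2 was -0.12 ± 0.060 (edgeR adjusted p = 0.491), so neither passed. The Z9 minus Z2 call was lost without Z9 a or Z9 b, at an edgeR adjusted p of up to 0.0712. Fitted on the 2 lines of a pair alone, edgeR's adjusted p was 0.106 for Z9 minus Z2 and 0.0360 for Z9 minus Z5.

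LAMB2 had 255, 258 and 253 CPM in the Z9 wells, 228, 227 and 248 CPM in the Z5 wells, 222, 221 and 231 CPM in the Z2 wells, and 219, 216 and 218 CPM in the Empty wells. The Z9 wells lay above all others, and all 9 labelled wells above the Empty wells. Z9 minus Z2 was 0.19 ± 0.049 on the log2 scale (SE, edgeR adjusted p = 0.0391), with a fold interval of 1.06 to 1.22. Z9 minus Z5 was 0.13 ± 0.049 (edgeR adjusted p = 0.227) and Z5 minus Z2 was 0.06 ± 0.049 (edgeR adjusted p = 0.663). The Z9 minus Z2 call of LAMB2 was lost without any single 1 of Empty a, b or c, Z2 b or c, Z5 b, or Z9 a, b or c (edgeR adjusted p of up to 0.134), and it was lost in the fit of Z9 and Z2 alone (edgeR adjusted p = 0.160).

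The ratio of LAMB2 to LAMB1 counts within a well needs no scaling between libraries. It was 0.761, 0.731 and 0.716 in the Z9 wells, 0.596, 0.579 and 0.614 in the Z5 wells, 0.565, 0.478 and 0.539 in the Z2 wells, and 0.611, 0.551 and 0.570 in the Empty wells. No well of 1 labelled line overlapped another labelled line. The means were 0.736 ± 0.0230 in Z9, 0.597 ± 0.0176 in Z5, 0.528 ± 0.0447 in Z2 and 0.578 ± 0.0309 in Empty (SD, n = 3 wells each). An exact two-sided permutation test gave p = 0.1 for each of the 3 pairs of labelled lines (0.1 after Benjamini-Hochberg adjustment), which is the smallest that 3 wells against 3 allow. The ratio was formed after the values of both genes were seen. Reads from the exon positions that LAMB1 shares with DLD may enter it, and their part was not tested.

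**Figure D3:**
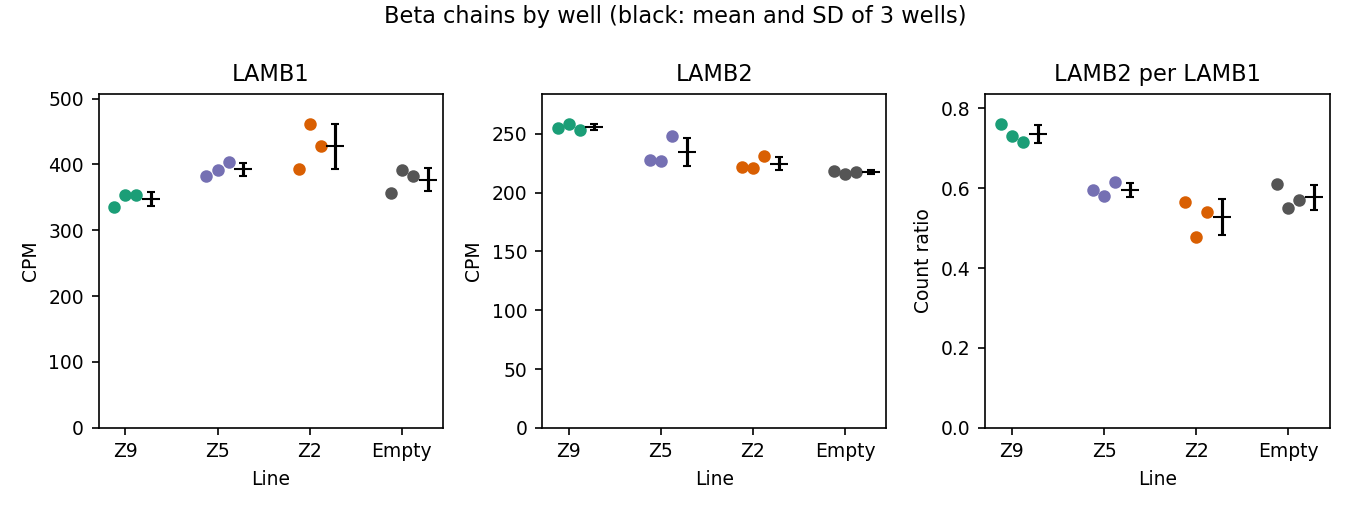
LAMB1 level, LAMB2 level (both CPM) and the ratio of LAMB2 to LAMB1 counts, 1 point per well for Z9, Z5, Z2 and Empty, with the mean and SD of 3 wells in black. The Z9 wells are the lowest for LAMB1 (335 to 354 CPM), the highest for LAMB2 (253 to 258 CPM) and the highest for the ratio (0.716 to 0.761).

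In the comparisons between labelled lines, chain calls were few. For Z9 minus Z2, LAMB1 and LAMB2 were the 2 chains called of 8, where 5.17% of all genes were called. The count was 1 without Empty a, b or c, Z2 b or c, Z5 b or Z9 c, and 0 without Z9 a or Z9 b, with no share of all genes given for those fits. For Z9 minus Z5 edgeR called 0 chains, where 1.52% of all genes were called, with 3 chains (LAMA3, LAMB1 and LAMB2) at an unadjusted p under 0.05 and 0 by DESeq2. Without Z2 b, 1 chain was called in that comparison. For Z5 minus Z2 edgeR called 0 chains, where 0.00654% of all genes were called, with 2 chains (LAMA1 and LAMC3) at an unadjusted p under 0.05 and 0 by DESeq2. DESeq2 gave no adjusted p for LAMA1 in Z9 minus Z5 or Z5 minus Z2, nor for LAMA3 in Z5 minus Z2. Its counts of 0 do not cover these, and they may not cover LAMB3, which had fewer counts than LAMA3.

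The genes next to LAMC3 on chromosome 9 are given beside it. AIF1L, which encodes an actin-binding protein and starts 2.06 kb after the end of LAMC3, averaged 25.5 ± 4.20 CPM in Z2, 27.8 ± 2.37 CPM in Z5, 27.3 ± 0.887 CPM in Z9 and 39.5 ± 2.33 CPM in Empty. AIF1L was lower in each of the 3 lines, with a difference of -0.56 ± 0.075 in their mean (log2, SE, edgeR adjusted p = 4.9e-05). FIBCD1, which encodes a chitin-binding membrane receptor and lies 68.5 kb before LAMC3, rose in the mean of the 3 lines. It averaged 3.10 ± 0.736 CPM in Z2, 2.17 ± 0.371 CPM in Z5, 1.52 ± 0.456 CPM in Z9 and 1.12 ± 0.0554 CPM in Empty, with a mean log2 fold change of 0.95 ± 0.19 (edgeR adjusted p = 0.00168). It did not pass in Z9 minus Empty (0.44 ± 0.24, edgeR adjusted p = 0.211), and Z9 minus Z2 was -1.02 ± 0.21 (edgeR adjusted p = 0.0179, lost without Z2 b, Z2 c or Z9 a, and 0.103 in a fit of the pair alone). Thus, in the mean of the 3 lines, the nearest tested gene after LAMC3 was lower, and the nearest before it higher, than in Empty. With the wells of a line summed, the calls of FIBCD1, PPAPDC3 and PRRC2B were lost (edgeR adjusted p of 0.0648 to 0.401).

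Of the 5 nearest tested protein-coding genes on each side, 10 in all, 3 rose and 1 fell, with a median log2 fold change of -0.072, where 13.0% of all genes rose and 12.6% fell. The others that rose were PPAPDC3, now named PLPP7, at 1.03 ± 0.29 (edgeR adjusted p = 0.0148, lost without Empty b or c) and PRRC2B at 0.14 ± 0.042 (edgeR adjusted p = 0.0232, lost without Empty a or c). ABL1, the tyrosine kinase gene, was at -0.01 ± 0.039, and the nuclear pore gene NUP214 at -0.05 ± 0.046. EXOSC2, FUBP3, FAM78A and PRDM12 lay between -0.21 and -0.09, and none of these 6 passed in the mean of the 3 lines. FUBP3 passed in Z2 minus Empty (-0.23 ± 0.076, edgeR adjusted p = 0.0379).

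**Figure D4:**
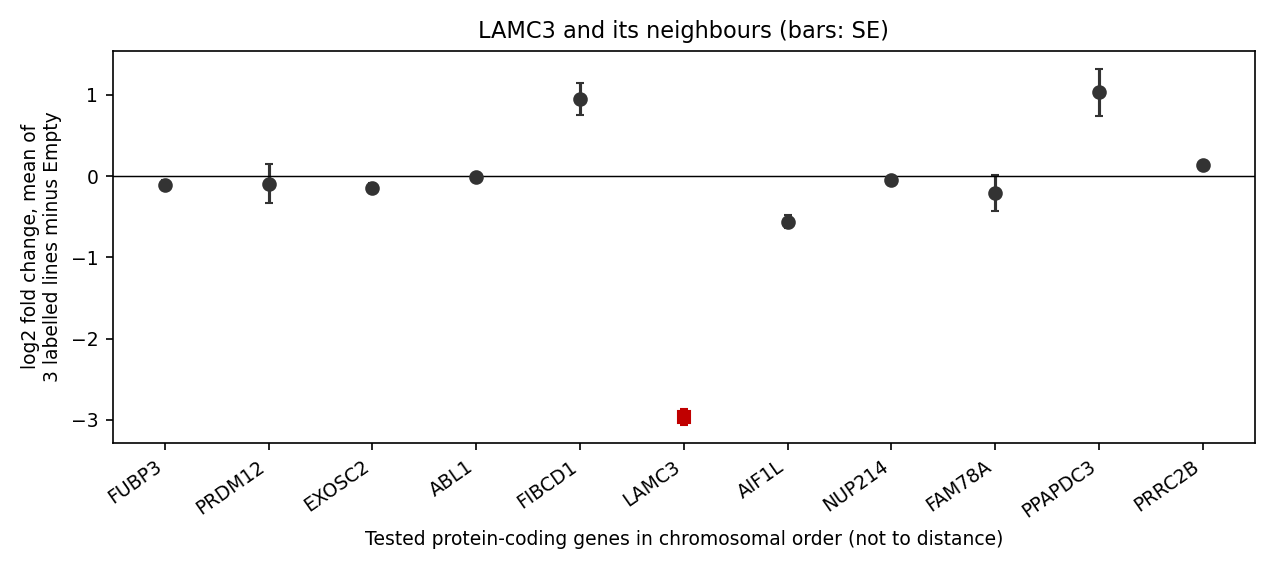
Mean log2 fold change of the 3 labelled lines minus Empty, with SE bars, for LAMC3 (square) and the 5 nearest tested protein-coding genes on each side in chromosomal order, not to distance. LAMC3 lies at -2.96, its neighbour AIF1L at -0.56 and the other neighbours between -0.21 and 1.03.

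The genes whose log2 CPM followed LAMC3 most closely over the 12 libraries, among 11669 genes compared, were APOA4 (Pearson r = 0.986), ABCC3 (0.978), WDR13 (0.966), ANXA4 (0.966) and ATP10D (0.963). APOA4 encodes an apolipoprotein, ABCC3 a basolateral export pump of bile acid conjugates, and ANXA4 an annexin. APOA4 averaged 4.82 ± 0.579 CPM in Z2, 4.70 ± 0.135 CPM in Z5, 4.39 ± 0.0736 CPM in Z9 and 9.71 ± 0.337 CPM in Empty. All of these r values share the split between the labelled wells and Empty. Over the 9 labelled wells alone r was 0.577 for APOA4, 0.155 for ABCC3, -0.123 for WDR13, 0.040 for ANXA4 and 0.172 for ATP10D. Of the other chains, LAMB3 had an r of 0.819 and LAMA3 of 0.759 with LAMC3 over the 12 libraries, and LAMB2 one of -0.63. Over the 9 labelled wells alone r was 0.709 for LAMB3, 0.102 for LAMA3 and -0.35 for LAMB2.

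Among partners of laminin in the basement membrane, SPARC rose and COL4A2 fell. SPARC, a collagen-binding matrix glycoprotein, averaged 81.5 ± 6.54 CPM in Z2, 83.8 ± 4.60 CPM in Z5, 80.4 ± 2.46 CPM in Z9 and 45.3 ± 3.12 CPM in Empty (mean log2 fold change 0.86 ± 0.056, edgeR adjusted p = 8.4e-09). COL4A2, a collagen IV chain, was scarce, at 0.634 ± 0.289, 0.961 ± 0.115 and 0.820 ± 0.231 CPM in Z2, Z5 and Z9, and 1.57 ± 0.234 CPM in Empty (-0.98 ± 0.21, edgeR adjusted p = 0.00198). COL18A1, the collagen that yields endostatin, rose by 0.22 ± 0.055 (edgeR adjusted p = 0.00830, and 0.0561 without Empty a). Of 11 tested members 2 rose and 1 fell, with a median of 0.088, where 25.6% of all genes were called and their median was 0.0029. Nidogen NID1, which links the LAMC1 chain to collagen IV, had 335 ± 14.9, 355 ± 11.3 and 330 ± 11.4 CPM in Z2, Z5 and Z9, and 319 ± 2.46 CPM in Empty. NID1 did not pass in the mean of the 3 lines (edgeR adjusted p = 0.117), but passed in Z5 minus Empty (0.15 ± 0.051, edgeR adjusted p = 0.0485). Agrin (AGRN) and perlecan (HSPG2) did not pass in that mean either, at 0.088 and 0.12.

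Of 13 tested laminin receptors 6 rose and 1 fell, with a median of 0.12, where 13.0% of all genes rose and 12.6% fell. BCAM, a receptor for the LAMA5 chain, averaged 285 ± 34.0 CPM in Z2, 313 ± 4.88 CPM in Z5, 343 ± 11.6 CPM in Z9 and 239 ± 7.0 CPM in Empty (0.39 ± 0.057, edgeR adjusted p = 9.0e-05). ITGA1, an integrin alpha chain that binds collagens and laminins, rose by 1.06 ± 0.13 (edgeR adjusted p = 0.000162), with 110 ± 23.7, 95.9 ± 10.5 and 83.3 ± 10.0 CPM in Z2, Z5 and Z9, and 46.1 ± 3.38 CPM in Empty. The syndecan SDC1 fell by 0.31 ± 0.053 (edgeR adjusted p = 0.000345). The laminin-binding integrin chains ITGA6 (0.24), ITGA7 (0.49), ITGB1 (0.17) and ITGB4 (0.28) were the other members that rose, named after their values were seen. The ITGB1 call was lost without Empty a, b or c, and that of ITGB4 without Empty b. Dystroglycan, DAG1, had a mean log2 fold change of -0.02 ± 0.040 and did not pass.

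Between labelled lines, 3 of 13 receptors were called for Z9 minus Z2, where 5.17% of all genes were, and these too are named after their values were seen. BCAM was higher in Z9 (0.27 ± 0.068, edgeR adjusted p = 0.0358), and ITGB1 (-0.26 ± 0.066, edgeR adjusted p = 0.0357) and ITGA2 (-0.39 ± 0.091, edgeR adjusted p = 0.0298) were lower. Each of these calls was lost without any 1 of several libraries, among them each Z9 well for all 3 genes (edgeR adjusted p of up to 0.133). All 3 were lost in a fit of Z9 and Z2 alone (edgeR adjusted p of 0.103 to 0.166).

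Of 18 tested genes for dystroglycan glycosylation, which builds the sugar chain that laminin binds, 2 rose and 2 fell, with a median of -0.012, where 25.6% of all genes were called. POMK, a kinase that phosphorylates the mannose of that chain, fell by 0.46 ± 0.077 (edgeR adjusted p = 0.000340), with 7.59 ± 0.494, 8.10 ± 0.148 and 7.68 ± 0.252 CPM in Z2, Z5 and Z9, and 10.7 ± 1.48 CPM in Empty. LARGE, which adds the laminin-binding repeat, rose by 0.18 ± 0.048 (edgeR adjusted p = 0.0103). That call was lost without Empty a (edgeR adjusted p = 0.0954), and the list then held 1 call. B4GAT1, which primes the LARGE repeat, was the other that fell (-0.17, edgeR adjusted p = 0.0440, lost without any 1 of 8 libraries).

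Of 6 tested genes with laminin-type domains, 2 rose and 1 fell, with a median of 0.12, where 13.0% of all genes rose and 12.6% fell. MEGF9 fell by 0.25 ± 0.059 (edgeR adjusted p = 0.00516) and ATRN rose by 0.19 ± 0.054 (edgeR adjusted p = 0.0140, and 0.134 without Empty a). The netrin genes NTN1, NTN3 and NTN4 did not pass, at 0.17, 0.074 and 0.047.

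Of 16 tested genes of laminin processing and cell adhesion, 4 rose and 1 fell, with a median of 0.033, where 25.6% of all genes were called. MMP2, a matrix protease that cleaves laminin, averaged 1.65 ± 0.255 CPM in Z2, 1.66 ± 0.392 CPM in Z5, 1.28 ± 0.198 CPM in Z9 and 0.530 ± 0.131 CPM in Empty (1.52 ± 0.21, edgeR adjusted p = 4.4e-05). MMP14, the membrane protease that activates MMP2, fell by 0.55 ± 0.076 (edgeR adjusted p = 5.1e-05), with 8.16 ± 0.629, 7.76 ± 0.296 and 9.28 ± 1.31 CPM in Z2, Z5 and Z9, and 12.2 ± 0.0850 CPM in Empty. DST, a plakin of hemidesmosomes, rose by 0.21 ± 0.060 (edgeR adjusted p = 0.0165, and 0.153 without Empty a). PLEC (0.17) and PARVA (0.15) were the other genes that rose, named after their values were seen. The PLEC call was lost without any 1 of 8 libraries and that of PARVA without Empty a or c. The list held 2 calls without Empty a and 3 without Empty c. The adhesion genes PTK2 and ILK passed in none of the comparisons. With the wells of a line summed, so that lines are the units, SPARC, COL4A2, BCAM, ITGA1, POMK, MMP2 and MMP14 were still called among all 5 lists, and the calls of the other named genes were lost (edgeR adjusted p of 0.0532 for SDC1 to 0.255 for LARGE among those of the naming rule).

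The other list members that differed between labelled lines, named after their values were seen, were DPM2, MMP15 and COL17A1. DPM2, a regulatory subunit of the enzyme that makes dolichol phosphate mannose, was 1 of 18 glycosylation genes called for Z9 minus Z2 (0.25 ± 0.067, edgeR adjusted p = 0.0418, and 0.161 in a fit of the pair alone) and for Z9 minus Z5 (0.30 ± 0.067, edgeR adjusted p = 0.0319, and 0.0119 for the pair alone). MMP15, a membrane protease, was lower in Z9 than in Z2 (-0.23 ± 0.058, edgeR adjusted p = 0.0341, and 0.153 for the pair alone) and than in Z5 (-0.25 ± 0.058, edgeR adjusted p = 0.0365, and 0.00992 for the pair alone). COL17A1, the hemidesmosomal collagen, was scarce, at 0.0720 ± 0.0373 CPM in Z9 and 0.303 ± 0.0800 CPM in Z2, and lower in Z9 (edgeR adjusted p = 0.0378, and 0.104 for the pair alone). All its Z9 wells lay under the low-count filter's cutoff of 0.184 CPM and all its Z2 wells over it. COL17A1 thus entered the test through lines other than Z9, and its p is given as a description only. MMP15 and COL17A1 were 2 of 16 processing and adhesion genes for Z9 minus Z2, where 5.17% of all genes were called. MMP15 was 1 of 16 for Z9 minus Z5, where 1.52% of all genes were called. All 5 calls were lost without any 1 of several libraries, among them each Z9 well (edgeR adjusted p of up to 0.206).

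**Figure D5:**
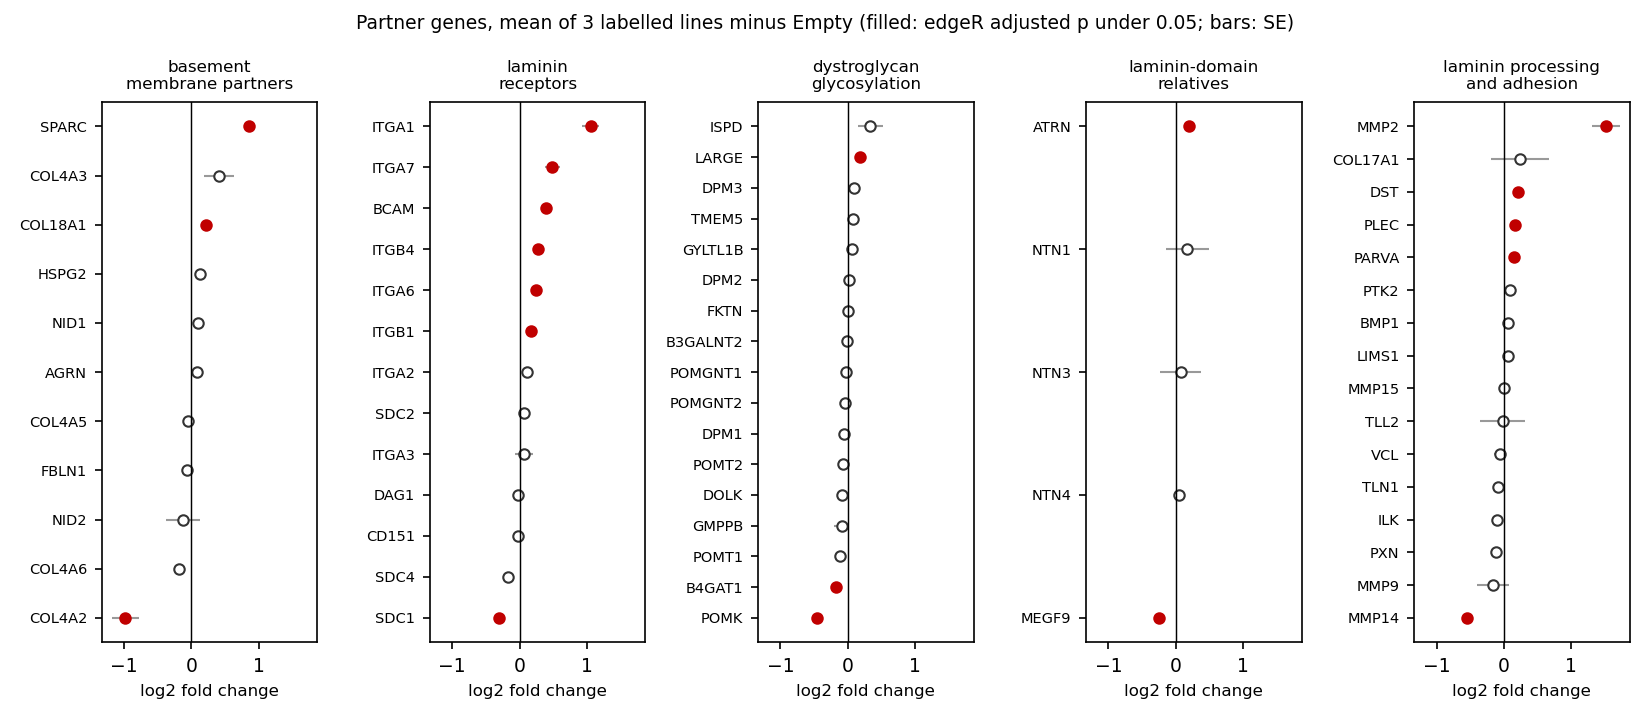
Mean log2 fold change of the 3 labelled lines minus Empty for tested members of 5 lists of laminin partner genes, with SE bars, filled red where the edgeR adjusted p was under 0.05. MMP2 (1.52), ITGA1 (1.06) and SPARC (0.86) lie farthest right and COL4A2 (-0.98) farthest left, while most members lie close to 0.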

How the data were processed

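For each of 12 libraries the authors deposited read counts by gene symbol, in whole numbers. The authors used STAR, featureCounts and hg38, per the submitters' processing notes. Versions, annotation and strand setting were not given in the sources used here. Per the labels' protocols, a column kit gave the RNA and a NEBNext Ultra II kit the libraries. Of 26485 genes, 21343 had a count and 15289 passed filterByExpr by group.

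The test was that of edgeR 4.0.16 (R 4.3.3): TMM scaling, then a robust quasi-likelihood fit of 4 group means to all libraries (8 residual degrees of freedom, common biological coefficient of variation 0.0696). Benjamini-Hochberg adjustment ran over all genes of a comparison, with calls at 0.05. SE is the log2 fold change over the square root of F. Levels are CPM on TMM-scaled totals, divided by the exon union of GENCODE release 29 where given per kb. Between wells of the same line, chi-square per degree of freedom was 6.31 to 45.8, so none is a repeat of another. The test was checked on simulated counts.

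The members and lists were chosen with earlier results of these data known. Named were all chains, in each list up to 3 called genes, by smallest adjusted p, 5 tested protein-coding neighbours of LAMC3 on each side, and the 5 genes with the highest r to LAMC3 (log2 CPM, prior count 2, mean of at least 1 log2 CPM). Others are marked in the text, and 2 called list members are not reported here. Alternatives were DESeq2 1.42.0 size factors and Wald test, no low-count filter, a minimum of 1 CPM in 3 libraries, each library left out, pairwise fits, the replicate letter as a block, and sums over the wells of a line.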

Additional observations from a re-analysis of the deposited data

Results flagged for a closer look

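LAMB1 and LAMB2 differed between the labelled lines Z9 and Z2 in the fit of all 4 lines. LAMB1 had a log2 difference of -0.30 for Z9 minus Z2 (edgeR adjusted p = 0.0151), with 347 ± 10.4 CPM in Z9 and 428 ± 34.3 CPM in Z2 (SD, n = 3 wells each). LAMB2 had a log2 difference of 0.19 for Z9 minus Z2 (edgeR adjusted p = 0.0391), with 256 ± 2.72 CPM in Z9 and 225 ± 5.58 CPM in Z2. In a fit of those 2 lines alone the edgeR adjusted p was 0.106 for LAMB1 and 0.160 for LAMB2. In both cases all 3 Z9 wells lay on the same side of all 3 Z2 wells. Both genes were picked for their calls, and the share of all genes with wells so separated is not given. Nothing is read from this separation.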

How the results depend on the processing

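The differences of LAMC3 from Empty kept their direction and their call under every alternative run. They are the values that chose the family, so this is a description of the settings only. Over all named genes, 1368 values kept their side of the threshold, 64 lost a call, 6 gained a call and 0 reversed. The number of chains called for Z2 minus Empty was 2 in place of 4 when only the groups compared were fitted. In the same kind of fit it was 0 in place of 2 for Z9 minus Z2 and 1 in place of 0 for Z9 minus Z5. For the mean of the 3 lines, 3 chains in place of 5 were called with a minimum of 1 CPM in 3 libraries, which removes LAMA1 and LAMB3 from the test, and 1 with wells summed per line, which leaves 4 units. With wells summed, calls were 2 of the receptors, 1 of the glycosylation genes, 0 of the laminin-domain genes and 2 of the processing and adhesion genes. The causes were not tested. Shares of all genes called under each alternative, or with each library left out, are not given. These counts are therefore not read as traits of the chains or lists. A fit of only the groups compared is the main fit itself for the mean of the 3 lines, so it was not run.

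With each library left out in turn, the chains called ranged from 1 to 4 for Z2 minus Empty, 1 to 2 for Z5 minus Empty, 1 to 5 for the mean of the 3 lines, 0 to 2 for Z9 minus Z2 and 0 to 1 for Z9 minus Z5. The glycosylation genes called ranged from 1 to 4 and the processing and adhesion genes from 2 to 6. The replicate letters did not pair the samples: same-letter deviations correlated at -0.101 to 0.173, with 5 of 18 pairs over 0.1. With the letter as a replicate block, the chains called were 4, 2, 3 and 5 in Z2, Z5, Z9 and their mean minus Empty, and it changed no count of chains. Depth limits LAMA1, LAMA4 and LAMB3, at 114, 3 and 319 counts over all libraries.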
